A study of Mus musculus with 2 samples.

Results

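TAC1* is 1 of the class names that the authors gave to single cells of mouse corneal epithelium, and its members are the cells whose deposited class name is exactly TAC1*. There were 606 of them among 33885 cells. The control library held 133 of its 17465 cells in the class (0.762%, exact 95% interval 0.638 to 0.902%), and the dry eye library 473 of 16420 (2.88%, 2.63 to 3.15%), so 78.1% of all members came from dry eye. The class was compared within the dry eye library with TAC1 (1136 cells) and with TAC2* (572 cells), and the control members were described apart, against the control TAC1 cells (1022 cells). TAC2* had 21 control cells and no control value of it is given.

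Both libraries came from 1 set of 7 mice, all males of the strain C57BL/6J at the age of 10 weeks. The extraorbital and intraorbital lacrimal glands, which make the watery part of tears, were excised on the right side, and the epithelium was collected 9 days later. The dry eye library pooled 6 right eyes, since 1 was left out for injury in surgery, and the control library pooled 7 left eyes, so treatment cannot be told apart from the side of the head. The epithelium was lifted with an enzyme, separated with trypsin, and sequenced by droplet capture of transcript 3' ends on the 10x Genomics platform (v3.1 kit). With 1 pooled library per group there are no replicates: every interval below covers counting error in the unique molecular identifiers (UMIs, 1 per captured transcript) and nothing else, no p-value can be given, and a class held mostly by 1 library may stand for that library and not for a cell type. Neither the meaning of the asterisk nor the way cells were classed is given in the sources used here. Since the classes were made from these same counts, a difference between classes is a description.

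The corneal epithelium is renewed from stem cells in the limbus, the rim of the cornea, whose daughters divide a limited number of times as transit amplifying cells before they leave the basal layer and flatten toward the surface. To divide, such a cell first copies its DNA in S phase. In late G1 the E2F factors switch on the genes for the MCM helicase, which opens the DNA, and for its loaders. Cyclins and spindle proteins for G2 and mitosis follow. Injured or stressed corneal and skin epithelium is known to add keratins 6, 16 and 17, protease inhibitors and lipid carriers to its usual products.

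In the dry eye library the TAC1* cells held the S phase genes at about the level of TAC1 and, as in TAC2*, keratins, lipid carriers and protease inhibitors at higher levels than TAC1. Against TAC1, none of 55 measured S phase genes was 2-fold apart, while the ratios of Krt14, Krt6a, Fabp5, Ly6a and Serpina3n ran from 5.06 to 166. Against TAC2*, 26 of the 55 S phase genes were at least 2-fold higher and 37 of 49 G2 and M genes at least 2-fold lower. The control TAC1* cells had the S phase genes with much lower levels of these 5. The 7 genes given as markers of the class split the same way: Timp1, Serpina3n, Ly6c1, Ltbp1 and Fabp4 were at least 2-fold higher than in TAC1, and Ung and Hells at least 2-fold higher than in TAC2*. These 7 came with the name of the class, so their levels describe it and are no test of the label. In the control members Serpina3n and Fabp4 had no UMI. Across genes, the dry eye members were most like dry eye TAC2* (Spearman's rho 0.953 over 4900 genes) and then dry eye TAC1 (0.901). Control TAC1 (0.864) and dry eye TAC2 (0.850) came next, ahead of control TAC1* (0.849 over 5291 genes). The control members were most like control TAC1 (0.961 over 5006 genes). Genes are not independent replicates, and these values describe the profiles only.

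**Figure D1:**
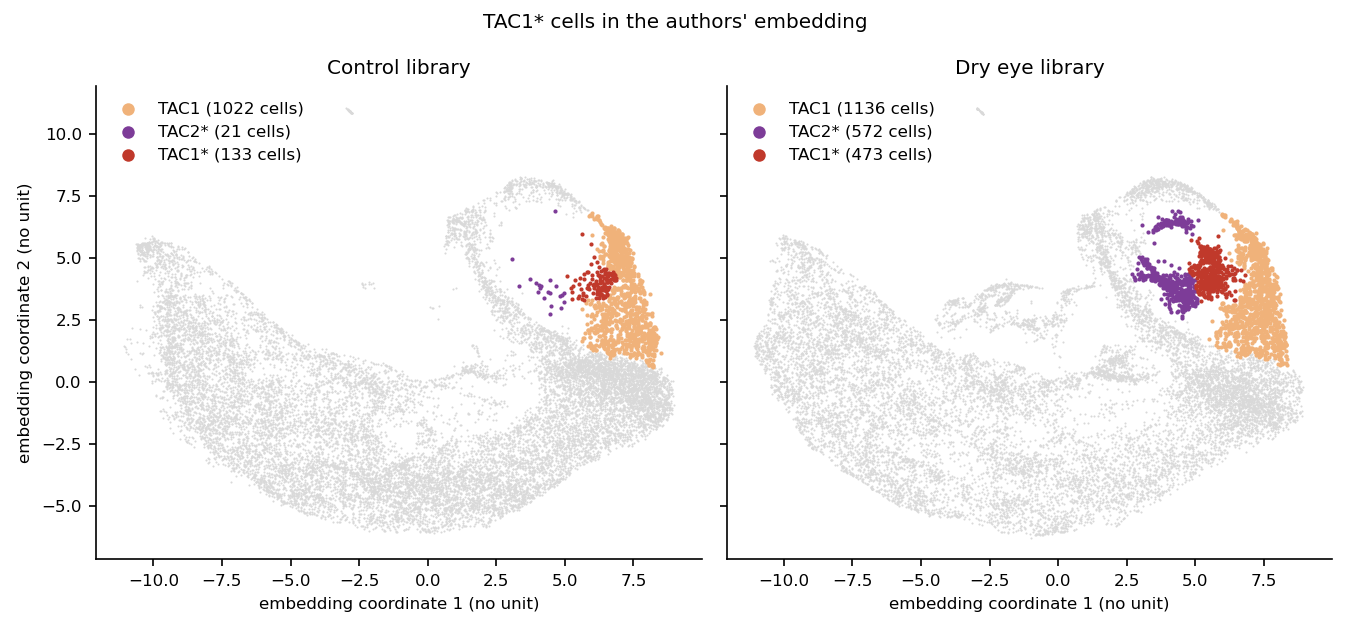
The authors' deposited 2-dimensional map of the cells, axes in arbitrary units, with the control library on the left and the dry eye library on the right; each point is a cell, grey for all classes and coloured for TAC1, TAC2* and TAC1*. TAC1* holds 133 cells in control and 473 in dry eye, and 92.7% and 97.7% of the 20 nearest neighbours of its cells on the map are TAC1* as well.

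The genes that loaded and moved the replication machinery set TAC1* apart from TAC2* within dry eye. Cdc6, which loads the MCM helicase, had 23.6 counts per 1000000 UMIs of the class (CPM) in TAC1* and 3.66 in TAC2*, a ratio of 6.44 (4.16 to 10.4), where brackets hold the exact 95% counting interval. Ung, the glycosylase that removes uracil from DNA, had 61.5 and 14 CPM, and Dtl, which directs Cdt1 to destruction in S phase, 47.8 and 13.1 CPM, with ratios of 4.38 (3.48 to 5.57) and 3.64 (2.85 to 4.69). Hells, a chromatin remodeller of replicating cells, had 157 CPM in TAC1* and 50.2 in TAC2*, and no other of the 12 dry eye classes with at least 50 cells had as much as TAC1*. Of 4900 genes compared with TAC2*, those with at least 50 UMIs over both classes and 20 CPM in one, 43 were at least 2-fold higher with an interval clear of 1 (0.878%) and 59 at least 2-fold lower (1.2%). Gene lists were counted over members with at least 20 UMIs, a rule by which 1.62% of all genes were higher and 1.88% lower. Of the 55 S phase genes 26 were higher and none lower, with a median log2 ratio of 0.97 against 0.04 over all genes, and 54 of the 55 intervals lay above 1. All 6 subunits of the MCM2 to MCM7 ring were among the 26, from 2.08-fold for Mcm7 to 3.03-fold for Mcm3.

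Promoter sequences of 3 genes on this higher side are shown because each holds the short E2F-type motif and no annotated exon lies in the window. They were chosen after their values were seen. The motif was searched on both strands as TTTCCCGC, TTTCGCGC, TTTGCCGC and TTTGGCGC, which can overlap each other, in the 250 bases before the RefSeq start (GRCm38.p6, strand of the gene, 5′ to 3′). Capitals mark the matches. Mcm6 and Mcm5 are helicase subunits, and Cdc25a is the phosphatase that frees the S phase kinases. The windows are chr1:128359706-128359955 on the minus strand, chr8:75109259-75109508 on the plus strand and chr9:109875329-109875578 on the plus strand.
Mcm6: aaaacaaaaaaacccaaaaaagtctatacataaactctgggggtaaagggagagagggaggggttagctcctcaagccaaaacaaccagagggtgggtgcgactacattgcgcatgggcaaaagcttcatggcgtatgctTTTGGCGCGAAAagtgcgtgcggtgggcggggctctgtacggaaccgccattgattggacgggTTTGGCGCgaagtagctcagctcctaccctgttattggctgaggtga
Mcm5: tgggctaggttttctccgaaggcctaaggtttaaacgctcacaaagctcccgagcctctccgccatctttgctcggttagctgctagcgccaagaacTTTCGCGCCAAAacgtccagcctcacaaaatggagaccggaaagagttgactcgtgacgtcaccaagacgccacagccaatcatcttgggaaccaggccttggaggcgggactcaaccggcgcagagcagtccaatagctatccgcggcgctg
Cdc25a: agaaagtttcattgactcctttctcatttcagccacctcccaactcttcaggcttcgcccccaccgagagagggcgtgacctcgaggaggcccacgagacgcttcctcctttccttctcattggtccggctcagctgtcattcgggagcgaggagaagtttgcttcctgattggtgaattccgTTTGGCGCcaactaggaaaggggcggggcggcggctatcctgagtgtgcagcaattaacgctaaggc

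The Mcm6 window held 3 matches, at 110, 106 and 47 bases before the start, the Mcm5 window 2 at 153 and 149, and the Cdc25a window 1 at 67. The first pair in Mcm6 and the pair in Mcm5 are overlapping matches on opposite strands. Mcm6 had 834 UMIs in TAC1* and 350 in TAC2*, or 136 and 53.4 CPM, a ratio of 2.56 (2.25 to 2.9). Mcm5 had 576 and 257 UMIs and a ratio of 2.4 (2.07 to 2.8), and Cdc25a 128 and 59 UMIs and a ratio of 2.33 (1.7 to 3.22). Of the 43 genes higher than in TAC2*, 37 had a window in the table and 14 of these (37.8%) held a match, against 201 of 3945 genes compared (5.10%), 2 of the 40 G2 and M genes with a window (5%) and 583 of all 27025 genes in the promoter table (2.16%). Ung, Mcm3, Cdt1, Chek1 and Fignl1, also higher in TAC1*, had no match in their windows. The check is void for sets with a window for under 80% of genes: 34 of the 59 genes lower than in TAC2*, 41 of the 55 S phase genes, and 119 of the 159 higher and 81 of the 114 lower than in TAC1. A match is a run of letters and says nothing of whether a factor binds.

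The later cell cycle genes went the other way. Cyclin B2 (Ccnb2), which drives entry into mitosis, had 1.96 CPM in dry eye TAC1* and 45.1 in TAC2*, a ratio of 0.0435 (0.0222 to 0.0771). Ube2c and Cdc20, partners in the ubiquitin ligase that ends mitosis, had ratios of 0.12 (0.0947 to 0.15) and 0.122 (0.0801 to 0.179), and the spindle proteins Nusap1 and Hmmr 0.0499 (0.0236 to 0.0935) and 0.0981 (0.0537 to 0.167). None of the 49 G2 and M genes was 2-fold higher and 37 were lower, with a median log2 ratio of -1.78 against 0.04 over all genes. These ratios are of summed counts. Per cell, the list held a median of 0.129% of UMIs in TAC1* and less, 0.0968%, in TAC2*. The upper quartiles were 0.182% and 0.433%, so the higher sum of TAC2* rests on part of its cells. A separate list, of replication-dependent histones and H2afz, is not one of later genes, yet 13 of its 15 measured members were lower too (median -1.46). Genes tied to DNA copying were thus not all higher in TAC1* than in TAC2*. Per cell, the histone list had median shares of 0.224% in TAC1* and 0.234% in TAC2*, with upper quartiles of 0.275% and 0.468%. Hist1h2ap, a histone H2A, had 198 CPM in TAC1* and 943 in TAC2*. Not every S phase gene followed the majority: Tyms, which makes thymidylate, had 58.7 and 66.6 CPM, with an interval for the ratio that crosses 1 (ratio 0.881, 0.764 to 1.02).

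Against TAC1 of the same library, the genes of these cell cycle lists differed little. In this comparison 4.15% of all genes with at least 20 UMIs were 2-fold higher and 4.96% lower. None of the 55 S phase genes and none of the 15 histone genes was 2-fold apart, with median log2 ratios of 0.08 and 0.10 against 0.05 over all genes. Hells had 157 CPM in TAC1* and 125 in TAC1 (ratio 1.26, 1.16 to 1.37), and Mcm6 136 and 133 (ratio 1.03, 0.941 to 1.12). Pcna, the clamp that holds the polymerases on DNA, had 207 and 224 CPM (ratio 0.925, 0.863 to 0.99). Of 48 G2 and M genes measured, 1 was higher: Cenpa, the histone of the centromere, with 16.5 and 3.7 CPM (ratio 4.46, 3.07 to 6.61), against 99.9 CPM in TAC2*. The S phase genes summed to 3660 CPM in dry eye TAC1*, 3474 in dry eye TAC1 and 1900 in dry eye TAC2*. The G2 and M genes summed to 1467, 1254 and 3030 CPM.

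**Figure D2:**
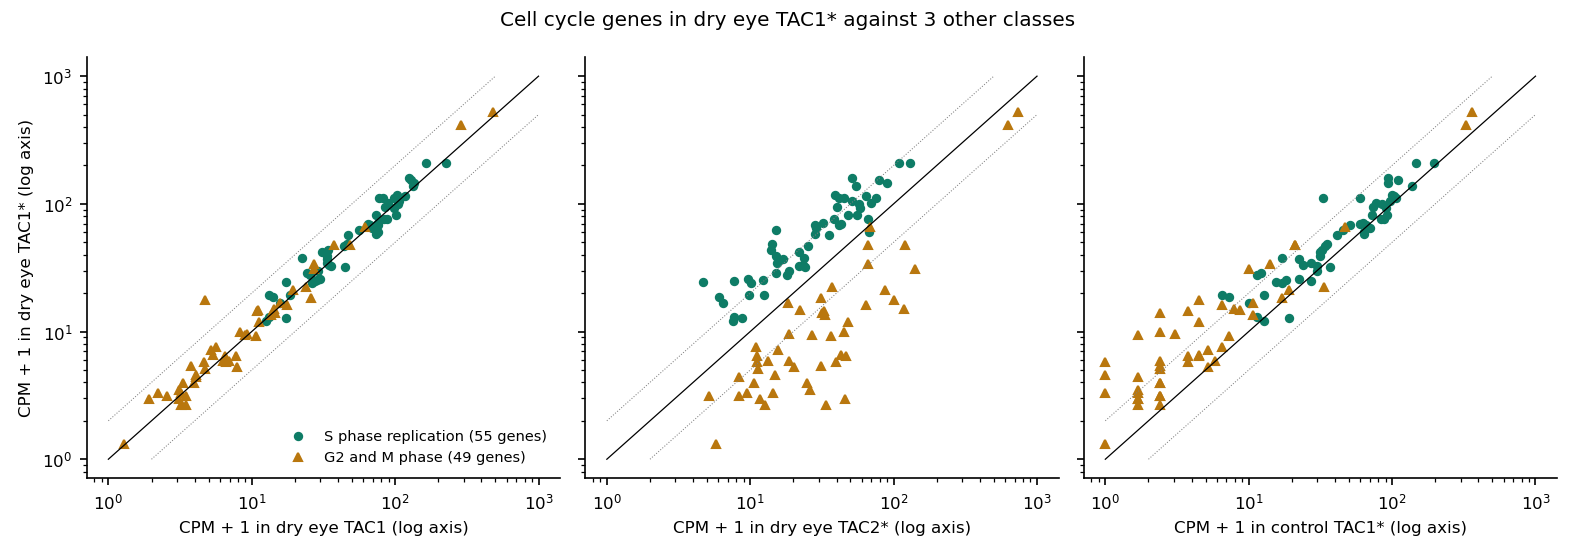
Level of each S phase gene (circles, 55 genes) and each G2 and M gene (triangles, 49 genes) in dry eye TAC1* on the y axis against dry eye TAC1, dry eye TAC2* and control TAC1* on the x axes, in CPM + 1 on log axes; the solid line is equality and the dotted lines are 2-fold. Circles hug the line against TAC1 and lie above it against TAC2*, where most triangles lie below.

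In single cells too, Hells was found more often in dry eye TAC1* than in TAC1 or TAC2*. Hells is 1 of the markers given with the class. The whole S phase list held a median of 0.347% of the UMIs of a cell in dry eye TAC1*, 0.302% in TAC1 and 0.101% in TAC2*. Its upper quartiles were 0.463%, 0.461% and 0.196%. With each cell thinned at random to 3000 UMIs (464 of the 473 dry eye members and all 133 control members had that many), Hells was found in 38.1% of dry eye TAC1*, 27.8% of control TAC1*, 30.7% of dry eye TAC1, 26.2% of control TAC1 and 11.6% of dry eye TAC2*. Without thinning the share was 77.4% in dry eye TAC1* and 60.2% in control TAC1*. Thinned to 1500 UMIs it was 19.2% (15.8 to 23.1%) in dry eye TAC1* and 16.9% (14.8 to 19.3%) in dry eye TAC1, intervals that overlap. Mki67 or Top2a, made in late S, G2 and mitosis, was found in 16.6% of thinned dry eye TAC1* (13.3 to 20.3%), 14.7% of dry eye TAC1 and 21.1% of dry eye TAC2*, against 64.1% of dry eye TAC2. In control TAC1* the share was 8.27% (4.2 to 14.3%), and in control TAC1 it was 12.3%. The squamous cells of the surface, which should lack all 3 genes, were used as a background. Free RNA, doublets and misclassed cells were not told apart in it. Of thinned Squam cells 0.703% in control and 1.09% in dry eye held Mki67 or Top2a, and 0.0670% and 0.210% held Hells, at median depths before thinning of 9512 and 9767 UMIs against 9360 and 11318 in TAC1*.

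The genes farthest from TAC1 within dry eye were mostly outside the S phase and G2 and M lists. Cyclin D2 (Ccnd2), given below, is a cell cycle gene that was lower. Of 4982 genes compared, 159 were at least 2-fold higher in TAC1* (3.19%) and 114 lower (2.29%), so 58.2% of the 273 were higher. When the 2 classes were scaled by the median ratio over genes, 125 were higher and 158 lower, or 44.2% higher, since the median gene was 0.11 higher on the log2 scale. Calls close to 2-fold depend on that shift. The genes at the head of the higher side included secreted inhibitors of proteases, Ly6 surface proteins, keratins and carriers of fatty acids. Msn, moesin, which ties the membrane to actin, had 133 UMIs in TAC1* and 6 in TAC1 (ratio 39.2, 17.5 to 109), and Cpn1, a carboxypeptidase, 210 and 20 (ratio 18.6, 11.7 to 31).

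Among the protease inhibitors, Serpina3n (mm10 chr12:104406729-104414329, plus strand), an acute phase inhibitor of serine proteases, had 282 UMIs in dry eye TAC1* and 3 in dry eye TAC1, or 46.1 and 0.278 CPM, a ratio of 166 (56.3 to 810.2). Timp1, the tissue inhibitor of matrix metalloproteinases, had 38.4 and 1.39 CPM (ratio 27.7, 16.4 to 50.3). In TAC2* the levels were 65 and 42.6 CPM, the highest of the 12 dry eye classes, with TAC1* next. Serping1, the inhibitor of the first complement protease, was 10.2-fold and Slpi, an inhibitor of neutrophil elastase, 7.77-fold higher than in TAC1. Cstdc5, of the cystatin family, had 8125 and 749 CPM. Of 20 protease inhibitor genes measured, 10 were higher and 1 lower (Cst6, another cystatin, 0.43), with a median log2 ratio of 1.07 against 0.05 over all genes.

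All 4 stress keratins were higher than in TAC1, with a median log2 ratio of 3.46. TAC1 was the lowest of the 12 dry eye classes for Krt6a, Krt6b and Krt16. TAC1* ranked 8, 9 and 9 of 12 for these, below Squam*, the highest (11140.5 CPM of Krt6a). For Krt14 and Fabp5 it ranked 4 of 12, below LSC*, the highest (15945 and 19834.5 CPM). Krt17 had 150.2 CPM in dry eye TAC1* and 6.48 in TAC1, Krt16 206 and 17.8, and Krt6a 1373 and 132. Krt14, the keratin of limbal and other basal epithelia, had 6047 and 1196 CPM, a ratio of 5.06 (4.96 to 5.16), while its partner Krt5 had 5427 and 5339 and a ratio of 1.02 (1 to 1.03). The corneal keratin Krt12 was the reverse of Krt14, with 9859 CPM in TAC1* and 16794 in TAC1 (ratio 0.587, 0.582 to 0.593). Reads shared between such close relatives as Krt6a and Krt6b, Krt14, Krt16 and Krt17, or Ly6a and Ly6c1 may have been split in counting, so the share of each within its family is uncertain.

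Lipid carriers and Ly6 proteins stood out next. Fabp5 (mm10 chr3:10012548-10016607, plus strand), the epidermal fatty acid binding protein, had 7399 CPM in dry eye TAC1*, 465 in TAC1 and 10907 in TAC2*, and the ratio to TAC1 was 15.9 (15.4 to 16.4). Per cell, its level ran from 163 to 26715 CPM in dry eye TAC1* with a median of 5601, against medians of 211 in dry eye TAC1 and 107 in control TAC1*. The lower quartile of dry eye TAC1*, 2835 CPM, lay above the upper quartile of dry eye TAC1, 504 CPM, and above the highest control member, 988 CPM. Fabp4, the carrier of fat and endothelial cells, was uneven: it had 179 UMIs in TAC1* and 6 in TAC1, and 10 cells held 70.4% of the former. Clu, a secreted chaperone of the cornea, was 5.67-fold higher. Ly6a, the surface protein known as Sca-1, had 727 CPM in TAC1* and 29.3 in TAC1 (ratio 24.8, 22.2 to 27.9), and Ly6c1 91.1 and 1.85 (ratio 49.2, 31.6 to 81.2). Of the 9 lipid genes measured 5 were higher, and of the 12 Ly6 genes 4 were higher and 2 lower, Ly6d and Slurp1. With cells thinned to 3000 UMIs, Fabp5 was found in 98.1% of dry eye TAC1* and 51.4% of dry eye TAC1, against 40.6% of dry eye Squam cells, and Ly6a in 81.9%, 7.27% and 46.2%. Squam had the highest Ly6a level of the 12 dry eye classes, 1629 CPM, with TAC1* 5 of 12. The Squam share for Ly6a is therefore not a background, and whether the Squam share for Fabp5 is one was not tested.

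**Figure D3:**
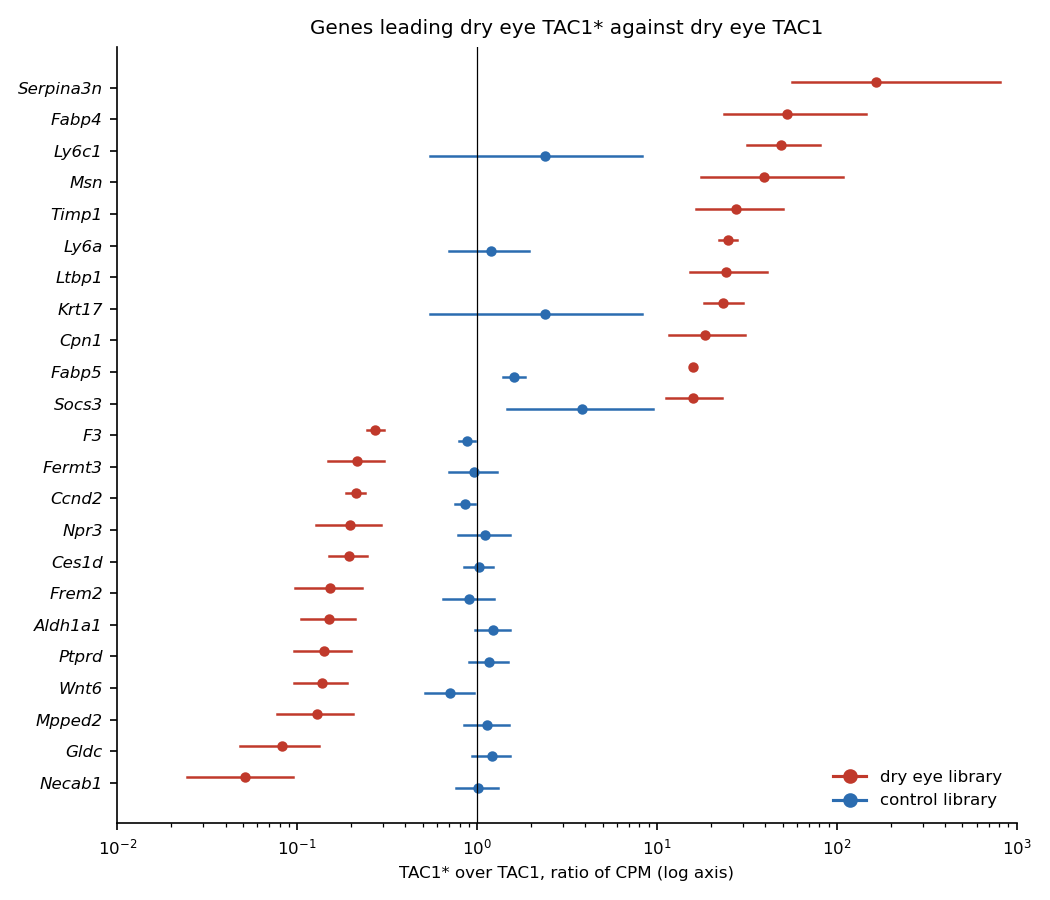
Ratio of CPM in TAC1* over TAC1 on a log axis for genes from the 12 ranked highest, 1 of them not shown, and the 12 ranked lowest within dry eye by the interval bound nearest to 1, predicted genes left out (red), with the same ratio within control (blue) where both control classes together had at least 10 UMIs; bars are exact 95% counting intervals. The red points run from 166 for Serpina3n to 0.0511 for Necab1, and the blue points lie nearer to 1.

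Genes of inflammatory signalling were higher than in TAC1 as well, though not higher than in TAC2*. Socs3, the feedback inhibitor of JAK and STAT signalling, had 52.7 CPM in dry eye TAC1* and 3.33 in TAC1, a ratio of 15.8 (11.2 to 23). TAC2* had the most Socs3 of the 12 dry eye classes, 70.5 CPM. Against TAC2*, 1 of 14 genes for chemokines and NF-kB feedback was lower and none higher, with 8 intervals below 1 and none above (median log2 ratio -0.46). Against TAC1, 9 of 13 genes for chemokines and NF-kB feedback were higher and none lower (median log2 ratio 1.93). Among the higher were Bcl3 (7.2-fold) and Relb (3.81-fold), which belong to the NF-kB system itself, and Cxcl16 (4.58-fold), a chemokine. The membrane proteins Ifitm3 and Ifitm1, which bar viruses from cells, had ratios of 7.29 (6.87 to 7.75) and 7.68 (7.07 to 8.36). On the list of interferon and MHC class I genes 4 of 24 measured were higher and 2 lower, while 13 intervals lay above 1 and 2 below (median log2 ratio 0.47). Ifit1 and Ifit3 were the lower pair, at 0.279 (0.0529 to 0.948) and 0.279 (0.0529 to 0.948). Each had 0.491 CPM in dry eye TAC1*, which is 3 UMIs, so these 2 ratios rest on very few counts. Against TAC2*, 1 of 22 measured genes of the interferon list was higher and none lower. The alarmin subunits S100a8 and S100a9 were 7.83-fold and 9.17-fold higher than in TAC1, yet at 0.127 and 0.226 times the level of TAC2*.

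Genes of the matrix and of adhesion split. Ltbp1, which stores latent TGF-beta in the matrix, had 42.7 CPM in dry eye TAC1*, 41 in TAC2* (ratio 1.04, an interval that holds 1) and 1.76 in TAC1 (ratio 24.3, 15.2 to 41). Sparc, a protein that binds collagen, had 276 and 51.6 CPM (ratio 5.36, 4.87 to 5.91), while Fn1, fibronectin, was lower (ratio 0.458, 0.398 to 0.527), as was Nid1, nidogen of the basement membrane (ratio 0.178, 0.108 to 0.279). The integrin Itga6, of the plates that hold basal cells to the basement membrane, was 2.09-fold higher. Of 18 wound and matrix genes 5 were higher and 2 lower, and of 19 adhesion genes 3 were higher and 1 lower. P-cadherin (Cdh3) and desmoglein 3 (Dsg3), both of basal cells, were 4.83-fold and 2.57-fold higher, and desmoglein 1 (Dsg1a), of upper layers, was lower (ratio 0.29, 0.237 to 0.352).

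The genes on the lower side included products of the resting cornea. Slurp1, a secreted Ly6 protein of the corneal surface, had 2545 CPM in dry eye TAC1* and 6151 in TAC1, a ratio of 0.414 (0.407 to 0.421). Aldh1a1, which makes retinoic acid, had 6.22 and 41.2 CPM, and the carboxylesterase Ces1d 12.4 and 64.3. Of 20 corneal identity genes 6 were lower and 1, Clu, higher (median log2 ratio -0.56). Pax6, the factor that specifies the eye, was within 2-fold, at 308 and 358 CPM (ratio 0.86, 0.814 to 0.909). Necab1, a calcium-binding protein, had the lowest ratio, with 10 UMIs in TAC1* and 346 in TAC1 (ratio 0.0511, 0.0243 to 0.0951). Cyclin D2 (Ccnd2), which carries growth signals into G1, had 49.4 CPM in dry eye TAC1*, 40.1 in TAC2* and 233 in TAC1, and the ratio to TAC1 was 0.212 (0.188 to 0.239).

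A pair of Wnt ligands, signals that pattern the epithelium, was also lower. Wnt6 had 6.38 CPM in dry eye TAC1* and 46.7 in TAC1, and Wnt10a 33.2 and 95.5, ratios of 0.137 (0.0961 to 0.19) and 0.348 (0.298 to 0.405), while of 22 genes on the Wnt list, which does not hold Wnt6, 1 was higher (Wnt11) and 1 lower (Wnt10a). None of 11 Notch genes was 2-fold apart, but 9 intervals lay below 1, among them those of the receptor Notch3 (ratio 0.544, 0.43 to 0.682) and the target Hes1 (ratio 0.75, 0.695 to 0.808). Id1 and Id2, inhibitors of differentiation factors, parted: Id1 was 2.48-fold higher and Id2 at 0.4 times the level of TAC1. In the glycolysis list 3 of 19 genes were higher, Pkm, Pfkp and the lactate carrier Slc16a1, and 13 intervals lay above 1 (median log2 ratio 0.62). Among 29 ribosomal proteins 28 intervals lay below 1 with none 2-fold apart (median -0.16).

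Krt14, Krt6a and Krt16 stood higher still in TAC2*. Krt14 had 6047 CPM in dry eye TAC1* and 7876 in TAC2*, Krt6a 1373 and 1884, and Krt16 206 and 428, the last the 1 stress keratin at least 2-fold lower in TAC1* (ratio 0.482, 0.451 to 0.516). None of 20 protease inhibitors was higher in TAC1* and 2 were lower, Stfa2 and Cstdc6, and none of 20 glycolysis genes was higher and 1 was lower, the lactate carrier Slc16a3. Amphiregulin (Areg), a ligand of the EGF receptor, had 2 UMIs in TAC1* and 40 in TAC2* (ratio 0.0536, 0.00628 to 0.207). In thinned cells, at least 1 of the 5 markers Timp1, Serpina3n, Ly6c1, Ltbp1 and Fabp4 was found in 46.6% of dry eye TAC1* (41.9 to 51.2%), 51.3% of dry eye TAC2* and 2.06% of dry eye TAC1. The share was 0.703% of control and 1.09% of dry eye Squam cells, and 3.01% of control TAC1* (0.825 to 7.52%). Unthinned, the shares were 79.5% in dry eye TAC1*, 85% in dry eye TAC2* and 6.02% in control TAC1*.

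Within the class, more genes were 2-fold apart between dry eye and control than between TAC1* and TAC1 in either library. Of 5288 genes compared, 268 were at least 2-fold higher in dry eye TAC1* (5.07%) and 305 lower (5.77%), while for TAC1 between the same libraries, compared after the data were seen, 15 of 4735 were higher (0.317%) and 4 lower (0.0845%). The counts of TAC1* rest on 1441592 control UMIs against 6112699 in dry eye, and with at least 200 UMIs required 196 genes were higher and 129 lower. Krt16 had 1261 UMIs in dry eye TAC1* and 2 in control TAC1*, a ratio of 149 (41.1 to 1229). Fabp5 had 7399 CPM in dry eye and 173 in control (ratio 42.7, 37.7 to 48.5), Ly6a 727 and 13.9 (ratio 52.4, 33.9 to 85.9), and Krt14 6047 and 596 (ratio 10.1, 9.48 to 10.9). Unstarred classes shifted too. Thinned to 3000 UMIs, Krt14 was found in 50.9% of control and 84.8% of dry eye TAC1, and in 48.8% and 81.6% of Basal. For Fabp5 the shares were 22.6% and 51.4% of TAC1, and 26.7% and 49.1% of Basal. Ly6a rose from 3.47% to 7.27% of TAC1 and fell from 56.8% to 46.2% of Squam. Serpina3n had no UMI in control TAC1*, and with that side set to a floor of 3 counts its ratio was 22.2. Fabp4, also without a UMI, had a ratio of 14.1 on the same floor. These ratios depend on the floor and are not lower bounds. Timp1 had 1 UMI in control TAC1* (ratio 55.4, 9.85 to 2198).

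Free RNA of a library can add to every class, and its part in the differences was not tested. Of thinned Squam cells, 2.48% in control and 17.9% in dry eye held Krt14. Across the 12 dry eye classes the lowest level was 402 CPM for Fabp5 (Basal), 123 CPM for Krt14 (Squam), 17.8 CPM for Krt16 (TAC1) and 0.230 CPM for Serpina3n (Squam). The lowest level of a class is not a measured level of free RNA. On the lower side Necab1, Gldc and Aldh1a1 had ratios of dry eye to control TAC1* of 0.0368 (0.0169 to 0.0722), 0.0505 (0.0286 to 0.0848) and 0.0914 (0.0612 to 0.134), and Krt12 had 9859 and 18689.8 CPM. Of 20 corneal identity genes 8 were lower in dry eye TAC1* and 1, Clu, higher, where by the rule for lists 6.93% of all genes were lower and 5.47% higher. Slurp1 had 2545 CPM in dry eye TAC1* and 6136 in control TAC1*. Of 19 glycolysis genes 6 were higher and 3 lower, with 1511 and 728 CPM for Gapdh (ratio 2.08, 1.95 to 2.22).

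**Figure D4:**
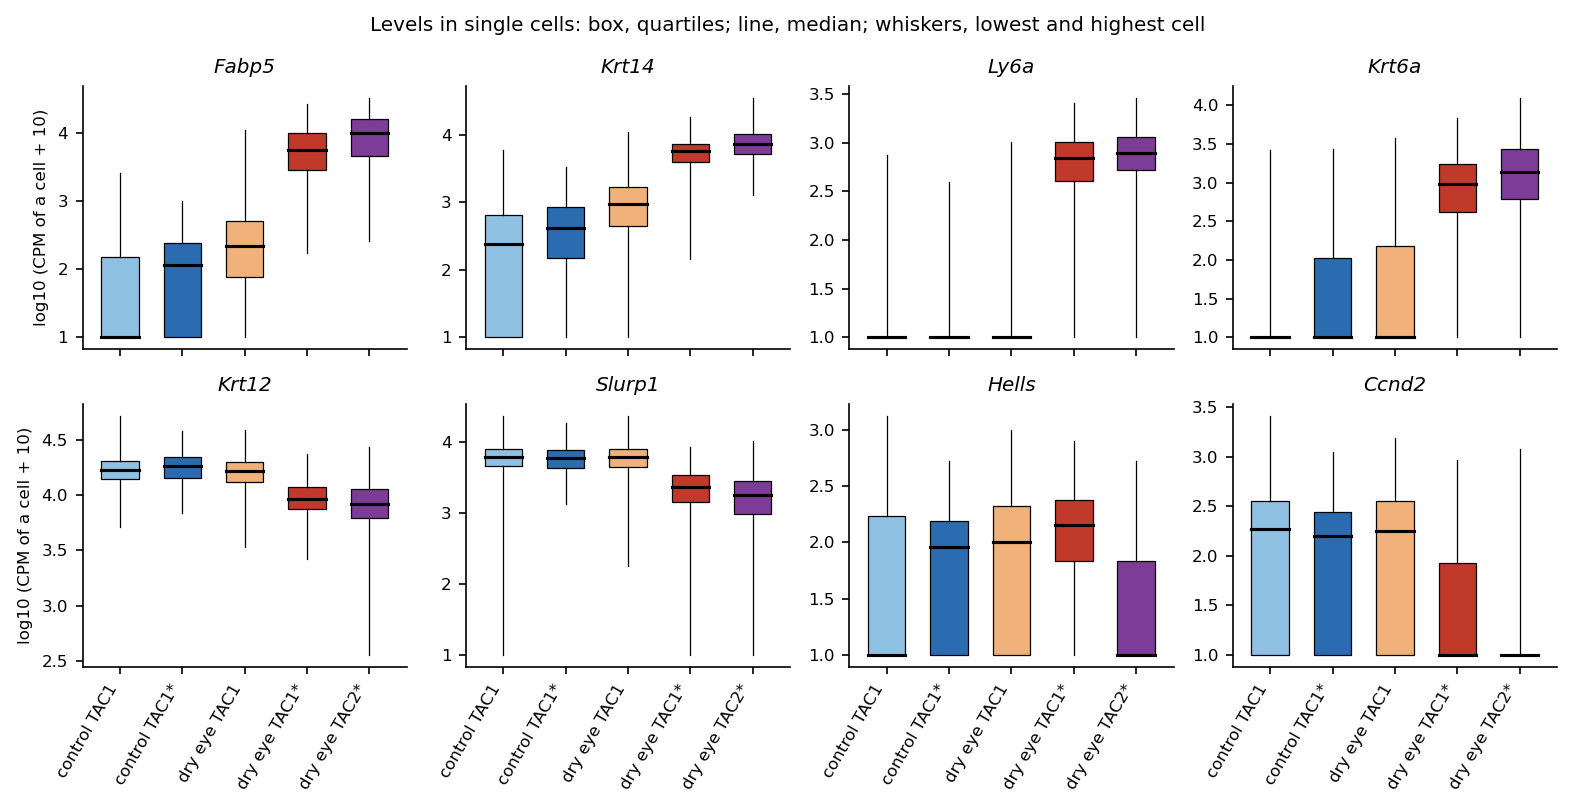
Level per cell of 8 genes, log10 of CPM + 10, in control TAC1, control TAC1*, dry eye TAC1, dry eye TAC1* and dry eye TAC2*; boxes are quartiles, the line the median, and whiskers the lowest and highest cell. For Fabp5, Krt14 and Ly6a the dry eye TAC1* box stands with TAC2* above the other 3, and for Hells it stands above TAC2*.

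The control members, taken alone, lay close to control TAC1. Of 5006 genes compared, 14 were at least 2-fold higher in control TAC1* (0.28%) and 11 lower (0.22%), so 56% of the 25 were higher, or 44.4% when scaled by the median ratio (12 and 15 genes). Fabp5 had 173 CPM in control TAC1* and 108 in control TAC1 (ratio 1.61, 1.39 to 1.85), Krt14 596 and 416 (ratio 1.43, 1.33 to 1.54), and Ly6a 13.9 and 11.6 (ratio 1.19, 0.698 to 1.94). Ly6c1 had 4 UMIs in control TAC1* and 10 in control TAC1, and Ltbp1 3 and 6, with ratios of 2.38 (0.546 to 8.27) and 2.98 (0.482 to 14) that do not separate the classes. The S phase genes were present: Hells had 93 and 99 CPM (ratio 0.938, 0.776 to 1.13) and Mcm6 137 and 127 (ratio 1.08, 0.922 to 1.26). The list of S phase genes summed to 2965 CPM in control TAC1* and 3357 in control TAC1.

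Some genes of late S phase and mitosis were lower in the control members than in control TAC1, where by the rule for lists 0.729% of all genes were lower and 1.12% higher. Pclaf, a partner of PCNA, had 52.7 and 142 CPM (ratio 0.371, 0.29 to 0.468), and Top2a, which untangles DNA, 20.1 and 43.8 (ratio 0.46, 0.304 to 0.671). Birc5 (survivin) had a ratio of 0.362 (0.19 to 0.632) and Rrm2, the subunit of ribonucleotide reductase made in S phase, 0.45 (0.326 to 0.608). Of 42 G2 and M genes measured 9 were lower and none higher (median log2 ratio -0.83 against 0.07 over all genes), and of 55 S phase genes 4 were lower. Between the libraries, dry eye TAC1* was higher than control TAC1* for 14 of 39 G2 and M genes and 6 of 55 S phase genes, with none lower. In that comparison 5.47% of all genes were higher and 6.93% lower by the rule for lists. Rrm2 had 110.1 CPM in dry eye TAC1* and 31.9 in control TAC1* (ratio 3.45, 2.56 to 4.76), while Pcna had 207 and 196 (ratio 1.05, 0.926 to 1.2).

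Several of the genes higher in control TAC1* than in control TAC1 had most of their UMIs in a few cells. Krt6a had 225 and 66.2 CPM (ratio 3.39, 2.95 to 3.9), and 10 of the 133 cells held 84.3% of its UMIs. Krt15, a limbal and basal keratin, had 219 and 67.4 CPM (ratio 3.25, 2.83 to 3.74) with 82.3% in 10 cells, and the mucosal keratin Krt13 a ratio of 2.34 (1.73 to 3.13) with 87.9%. Cdkn1a, the inhibitor of cyclin-dependent kinases known as p21, had 52.7 and 20.9 CPM (ratio 2.52, 1.9 to 3.31) with 72.4%. Without the 10 cells of each class that held most of each gene, a larger part of the 133 than of the 1022 cells, Krt6a, Krt15, Krt13 and Cdkn1a had log2 ratios of -0.17, -0.46, -1.41 and -0.15. Without the top 2% of cells of each class, an alternative added after the data were seen, they had 1.67, 0.51, 0.04 and 1.18. Mxd1, an antagonist of MYC, was spread more evenly, with 42.9% of its UMIs in 10 cells and a ratio of 2.94 (1.9 to 4.46).

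When the 606 members were clustered alone, the libraries parted almost fully. Of 5 sub-clusters, 1 held all 133 control cells and 11 dry eye cells, with 234 CPM of Fabp5 and 728 of Krt14. The rest of the dry eye members formed the other 4, of 234, 167, 47 and 14 cells. The genes that made the sub-clusters are among those described, so the levels are no test. The sub-cluster of 234 cells had 9087 CPM of Fabp5 and 1830.1 of Krt6a, and the one of 167 had 4419 CPM of Fabp5 and 222 of Gpha2, a hormone subunit that marks the limbus, against 83.1 in the 234. The sub-cluster of 47 cells had the most Fabp5, at 9974 CPM, and 140.2 CPM of Fabp4. The 14 cells had the highest median depth, 17163.5 UMIs, with 1196 CPM of Krt15, 293 of Krt13 and 141 of Cdkn1a. At a finer resolution of 1, which gave 6 sub-clusters, the deepest held 38 cells with a median of 17774.5 UMIs and 474 CPM of Krt15, 123 of Krt13 and 89.1 of Cdkn1a, so these levels depend on the resolution. No doublet caller was run, so doublets among these 14 cells were not tested. Hells lay between 95 and 163 CPM in all 5.

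**Figure D5:**
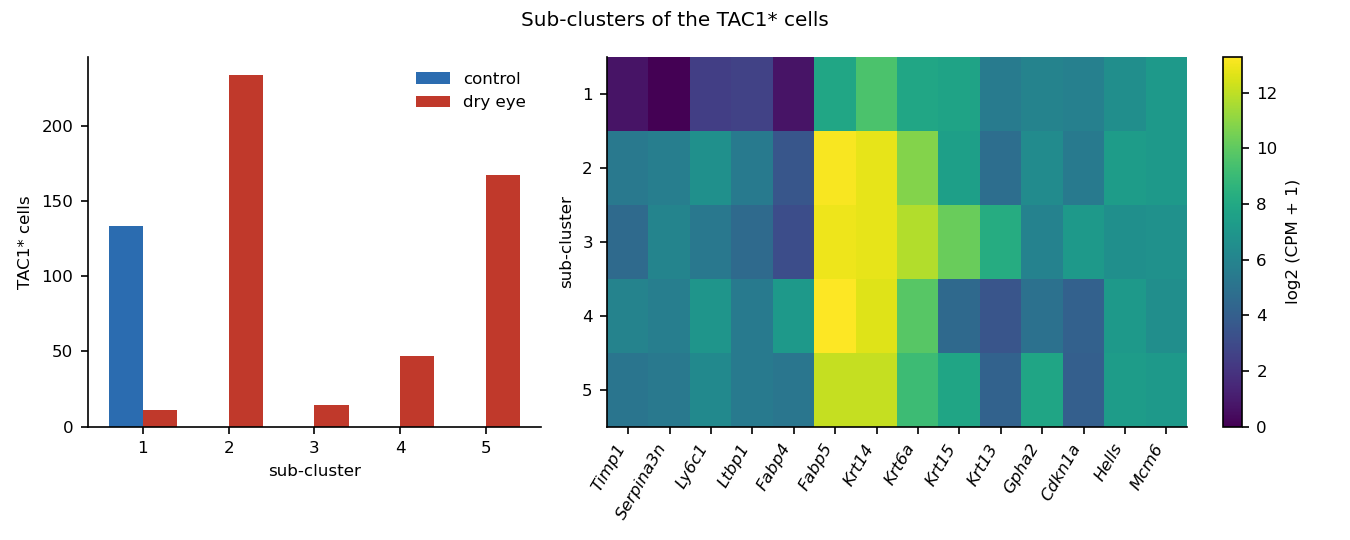
Left, number of TAC1* cells of each library in each of 5 sub-clusters, bars from 0; right, log2(CPM + 1) of 14 genes in each. Sub-cluster 1 holds all 133 control cells with 11 dry eye cells and has the least Fabp5 and Krt14, while Hells lies between 95 and 163 CPM in all 5.

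Markers of immune and vascular cells were low in the class, and some of the conjunctiva were not. Of 10 vascular endothelial markers listed 6 were in the count table, and of these 3 had no UMI in dry eye TAC1* (Plvap, Flt1 and Vwf), and the sum of 121 CPM was nearly all Ly6c1 and Fabp4, against 2.77 CPM in control TAC1*. Of 14 myeloid markers 9 had no UMI in dry eye TAC1* and 12 in control TAC1*, with sums of 6.54 and 6.94 CPM. The neutrophil markers summed to 41.7 CPM in dry eye TAC1*, of which S100a9 gave 35.7, with Ly6g and Mmp8 at 0, and to 4.16 CPM in control. T cell markers summed to 3.11 and 3.47 CPM, with 4 of the 7 in the table at 0 in dry eye. The 9 conjunctival markers summed to 2698 CPM in dry eye TAC1*, 3434 in control TAC1* and 2894 in dry eye TAC1, with Krt8 and Tfcp2l1 at 0 in both TAC1* groups. Most of the dry eye sum was the water channel Aqp5 (1389.7 CPM) and the secreted protein Wfdc2 (1096 CPM). Of 7 conjunctival markers measured 3 were higher than in dry eye TAC1, Krt17, Krt4 and Krt19, with 6 intervals above 1 (median log2 ratio 0.91). Against control TAC1*, 4 were higher, these 3 and Wfdc2, and 1, Aqp5, lower (median 1.30). The defining keratins stayed far below the dry eye cells named Conj: Krt4 had 11.1 CPM against 2468 and Krt13 33.9 against 6712. Pericyte and muscle markers summed to 7.2 CPM in dry eye TAC1* and 2.78 in dry eye TAC1, and both of the 2 measured were higher. Genes that dissociation can raise summed to 1307 CPM in dry eye TAC1*, 1626 in control TAC1*, 1251 in dry eye TAC1 and 1292 in control TAC1. The part of these cells and genes in the differences was not tested. Depth also differed: median UMIs per cell were 11211 in dry eye TAC1*, 8554 in dry eye TAC1, 9868.5 in dry eye TAC2*, 9360 in control TAC1* and 7656.5 in control TAC1, and the part of depth in the differences was not tested beyond the thinned shares above. The mitochondrial share had medians of 1.75% and 2.16% in dry eye and control TAC1*. The libraries held 191493194 (control) and 207030777 (dry eye) UMIs, 74 barcodes occurred in both, and 4 TAC1* cells carried such a barcode.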

How the data were processed

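Single-cell RNA of 2 libraries was analysed, 1 per group. The authors deposited raw UMI counts per gene and cell, without normalization, for 17891 genes and 33885 cells, and a table with the library, class and map position of each cell. The submitters' processing notes name Cell Ranger 6.0.1, Seurat 4 and mm10 without saying what each was used for. The filters on cells and genes, the classing and any removal of doublets are not given in the sources used here. No further filter and no doublet caller were applied.

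The members, the gene lists and the rule for named genes were chosen with earlier results of these data known. Counts were summed per class and library and divided by their total (CPM). A ratio of CPM had an exact 95% interval from the split of the 2 counts (Clopper-Pearson), and a side at 0 was set to a floor of 3 counts. Genes with at least 50 UMIs over both sides and 20 CPM in one were compared, and called at 2-fold with the interval clear of 1. List members needed 20 UMIs and no CPM minimum. Named genes were the 12 highest and 12 lowest of dry eye TAC1* against TAC1 and the 8 highest and 8 lowest of the other comparisons, by the bound nearest to 1 and without predicted, mitochondrial, ribosomal and haemoglobin genes, then, from every list, the 2 members with the highest and the 2 with the lowest ratio, and a set of followed genes. Some genes the rule names are not reported here. Further list members were named as examples after their values were seen.

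1 UMI was worth 0.164 CPM in dry eye TAC1* and 0.694 CPM in control TAC1*, which limits what the control members can show. Cells were thinned to 3000 UMIs by random draws without replacement. The members were clustered on 1000 variable genes, 15 components and 15 neighbours (scanpy 1.11.5, Leiden, resolution 0.5). Python 3.11.15, numpy 2.4.6, scipy 1.17.1, pandas 2.3.3 and matplotlib 3.10.9 were used, and the ratio test was tested on simulated data. Gene positions came from GENCODE M21 (mm10), where 17599 of the 17891 genes were found, and promoters from RefSeq (GRCm38.p6). Alternatives changed the scaling, the minimum counts, the cells used and the depth of thinning.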

Additional observations from a re-analysis of the deposited data

Results flagged for a closer look

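Ccl27a, a chemokine that draws T cells to skin, had a ratio of TAC1* over TAC1 of 0.569 within dry eye (7.69 and 13.5 CPM) and of 1.74 within control (16 and 9.19 CPM). It was singled out because the class stood on opposite sides of TAC1 in the 2 libraries. The difference between the libraries was not tested.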

How the results depend on the processing

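Of the log2 ratios of named genes under the alternatives, 1681 stayed within the counting interval of the reported value, 249 left it and 6 of a called gene changed direction. Of the list medians, 839 stayed within 1 SD over the members and 25 did not. All 6 reversals were in control TAC1* against control TAC1 without the 10 cells with most counts of each gene: Cdkn1a -0.151, Krt13 -1.41, Krt15 -0.457, Krt6a -0.166, Ly6g6c -1.59 and Ttc36 -0.698. By construction 10 cells are a larger part of the 133 control members than of any class they are set against. The same alternative gave 782 higher and 104 lower genes for dry eye against control TAC1*, and 0 higher and 188 lower for control TAC1* against control TAC1. With 20 UMIs and no CPM minimum more genes entered, and 460 were higher and 550 lower against dry eye TAC1, 172 and 199 against dry eye TAC2*, 544 and 689 against control TAC1*, and 117 and 76 for control TAC1* against control TAC1. With at least 200 UMIs fewer entered: 129 were lower in dry eye than in control TAC1*, and 5 higher in control TAC1* than in control TAC1. Without the top 2% of cells of each side, added after the data were seen, 7 were lower in the latter, and the cause was not tested.

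Among limbal, transit amplifying and basal cells alone, TAC1* was 1.86% of control and 6.29% of dry eye. Shares of cells scale with the depth kept. Thinned to 1500 UMIs and without thinning, Mki67 or Top2a was found in 11% and 39.5% of dry eye TAC1*, 3.76% and 23.3% of control TAC1*, 7.24% and 28.4% of dry eye TAC1, and 15.3% and 33.9% of dry eye TAC2*. Hells was found in 19.2% and 77.4%, 18% and 60.2%, 16.9% and 57.7%, and 6.35% and 28.5% of the same classes. No paired analysis was possible because each group has 1 library.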

Other observations

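On the authors' map the control members lay mostly beside each other and beside dry eye TAC1*, while across genes their levels were most like those of TAC1. Of the 20 nearest neighbours of a control TAC1* cell, 92.7% were TAC1* cells on average and 7.07% were TAC1, and 54.9% of all its neighbours were control TAC1* cells. Over genes, Spearman's rho of the control members was 0.961 with control TAC1, 0.952 with dry eye TAC1 and 0.849 with dry eye TAC1*.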
